A study of Ovis aries with 12 samples.

Results

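miRNA expression in the left ventricle was compared between lambs at 173 days after birth (P173) and lambs at 5 days after birth (P5). The comparison used 6 arrays of the 12 in the series, 3 at P173 and 3 at P5, and took in all 3091 probes that were not controls. Each array held total RNA from the left ventricle of a different Merino sheep. The 6 lambs were untreated females, the P5 lambs were all twins and the P173 lambs were all singletons, so twin birth cannot be told apart from age. P5 replicates 1 and 2 carry the same number with a different letter in their array names, so they may be co-twins, which the labels do not say. The other 6 arrays, 3 fetuses at F91 (91 days of gestation, P5 and P173 being counted from birth) and 3 at F140 (141 days in the sample titles), served to estimate the spread and to show the level of each miRNA before birth. They were females and singletons except for a male, F91 replicate 3, and a twin, F140 replicate 2.

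miRNA are short RNA that guide the silencing complex to messenger RNA, which they find mainly through the seed, bases 2 to 8 from their 5′ end. miRNA with the same seed tend to share targets, and miRNA of a genomic cluster are often cut from a common transcript. Between the first days and the first months after birth the sheep heart grows by enlargement of cardiomyocytes that have largely stopped dividing, and its extracellular matrix and energy supply mature. The question of the comparison was which miRNA changed over this period of postnatal maturation.

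The sequences below are those of the miRNA on which the results turn, as given in the annotation of the array, with the seed in capitals. The first set are miRNA of the imprinted region of sheep chromosome 18 that were lower at P173.
miR-493-5p: uUGUACAUgguaggcuuucauu
miR-432: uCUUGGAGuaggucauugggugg
miR-380-3p: uAUGUAAUgugguccacgucu
miR-411a-3p: uAUGUAACacgguccacuaac
miR-379-3p: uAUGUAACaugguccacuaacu
miR-127: aUCGGAUCcgucugagcuuggcu
miR-329a-3p: aACACACCugguuaaccuuuuu
miR-329b-3p: aACACACCugguuaaccucuuu
miR-411a-3p and miR-379-3p had the same seed and differed at 1 of the 21 positions compared, C10U, with the first miRNA's base given first and positions counted from 1 at the 5′ end. miR-329a-3p and miR-329b-3p also shared their seed and differed at 1 of 22 positions, U19C. Signal from pairs this alike may not be separate measurements, which was not tested.

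The second set are the other miRNA whose level was lower or higher at P173.
miR-15b: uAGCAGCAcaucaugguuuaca
miR-214: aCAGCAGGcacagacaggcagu
miR-193b: aACUGGCCcacaaagucccgcuuu
miR-29a: uAGCACCAucugaaaucgguu
miR-29b: uAGCACCAuuugaaaucagugu
miR-29d-3p variant: uAGCACCAuuugaaaucgguuaaa
miR-150: uCUCCCAAcccuuguaccagug
The 3 miR-29 sequences had 1 seed. The probe of miR-29d-3p is a variant of the bovine sequence, as the array names it, and the results below for miR-29d-3p, and likewise for miR-7977 and mir-5100-p5, are those of the variants printed. Some other names below were also read from probes that are variants in length or base, among them miR-195, miR-208b, miR-6412, miR-133a and miR-29a-3p. miR-29a and the miR-29d-3p variant differed at 1 of the 21 positions compared, C10U, and miR-29a and miR-29b at 3, C10U, G18A and U21G.

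The third set are entries of the array that end in the bases CCA, here in capitals, which cells add to the 3′ end of transfer RNA.
miR-2478: guaucccacuucugacaCCA
PC-3p-8998_497: ucaucccacuucugacaCCA
miR-7977 variant: ucccagccaaugcaCCA
mir-5100-p5 variant: gaucccagcggugccuCCA
miR-4454 variant: guauccgagucacggcaCCA

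Values are normalised units of the deposited table, which had been background corrected and normalised between arrays, on a linear scale and rounded to whole numbers. A probe at which all 3 arrays of an age read under 32 units was treated as not above background at that age, and its fold is then a lower bound, set against 32 units and written as at least that fold. Other folds are those of the fitted log2 change, also where the mean of an age was under 32 units but not every array was. This was so at P173 for miR-432 (mean 23.7 units), miR-380-3p (22.3) and miR-409-3p (22.7). Their folds rest partly on values at background and cannot be set beside the lower bounds. Changes were tested as log2(value + 0.1) with limma, and a probe was called at an adjusted p (Benjamini-Hochberg over the 3091 probes) of 0.05 or less. Intervals are 95 % confidence intervals of the fitted log2 change, P173 minus P5. On each lamb array 944 to 1000 probes read at least 32 units, and the 90th percentile of the scanner signals was lowest on P173 replicate 2 (709 units, against 1106 to 2015 on the others). P5 arrays correlated with each other at 0.937 to 0.971 over the 775 probes averaging 100 units or more, and P173 arrays at 0.911 to 0.935. The lamb arrays showed muscle tissue, since miR-133a-3p, a miRNA of heart and skeletal muscle, read 13434 to 17987 units on them. This marker does not tell heart from skeletal muscle. Of the other muscle markers, miR-208a had a mean under 32 units in lambs, and miR-208b was above background at P173 but not at P5. That the tissue was heart therefore rests on the sample labels. None of 22 names that mark liver, brain, pancreas or epithelium had a mean of 32 units or more in lambs, and their summed level was 86 to 176 units at P5 and 53 to 119 at P173. The highest of them was miR-122, a liver miRNA, with 65, 66 and 17 units at P5.

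Of the 3091 probes, 49 (1.59 %) were called between P5 and P173, 28 of them higher (0.906 %) and 21 lower (0.679 %) at P173. Without adjustment 337 probes had a p under 0.05. The 28 higher probes carried 16 miRNA names and the 21 lower probes 20 names, with species prefixes and variant suffixes left off. The median change of all probes was -0.16. Most calls depended on single lamb arrays. Leaving out 1 P5 array, P173 replicate 1 or P173 replicate 2 left 12 to 17 of the 49, leaving out P173 replicate 3 left 45, and 8 held whichever of the 12 arrays was left out. With P5 replicates 1 and 2, the possible co-twins, averaged to 1 sample 9 probes were called, and 9 were called without a trend in the variance, against 0 with the replicate number as a block in the 6 lamb arrays. The 8 were the probes of miR-493-5p, miR-432, miR-380-3p, miR-411a-3p and miR-193b and the 3 probes of miR-15b. In simulated data of the same design with 200 of 3091 probes changed, the share called was 26 % where the log2 change was 1, 76 % where it was 2, 94 % where it was 3 and 100 % where it was 4. The probes changed all had a mean of at least 100 units and the noise was independent between probes, so these shares do not carry over to dimmer probes.

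**Figure D1:**
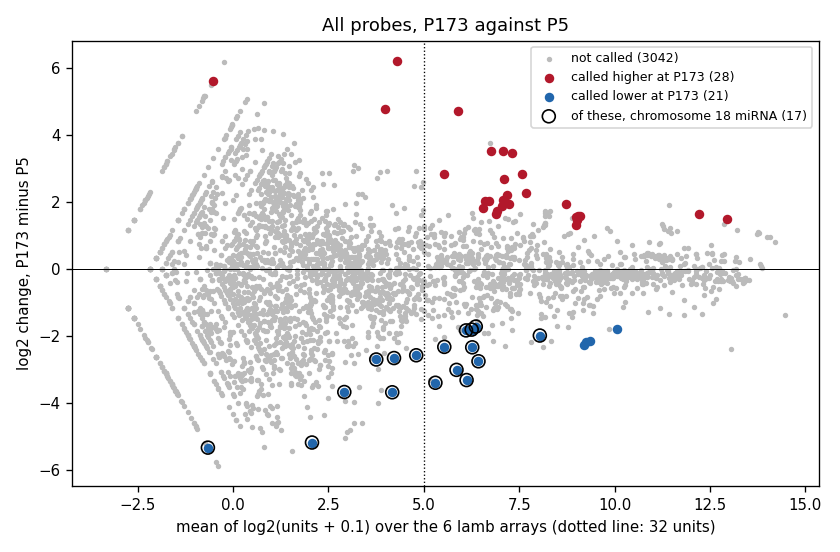
Fitted log2 change from P5 to P173 (vertical axis) against the mean of log2(units + 0.1) over the 6 lamb arrays (horizontal axis), with 1 point for each of the 3091 probes. The 28 probes called higher are red and the 21 called lower are blue, 17 of them ringed as miRNA of the chromosome 18 region, and uncalled probes scatter most widely to the left of the dotted line at 32 units.

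The largest group of miRNA that were lower at P173 came from the imprinted region of sheep chromosome 18. This region, between the genes DLK1 and DIO3, holds a long series of miRNA genes that are expressed from the maternal chromosome, and in sheep it is also the site of the callipyge mutation of muscle growth. The array held 123 miRNA names of the region. At P173 16 of them were called lower and 0 higher, 13 % of the list, against 0.679 % of all probes called lower. Over the whole list the summed level of every fetal heart, 7437 to 12246 units, was above that of every lamb heart.

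miR-432 read 226 ± 71.7 units in the P5 hearts (SD, n = 3, with 309 and 189 units on the 2 higher arrays) and 24, 13 and 34 in the P173 hearts. The arrays of the 2 ages did not overlap, and the level at P173 was 9.94-fold lower by the fitted log2 change of -3.31 (interval -4.21 to -2.42, adjusted p = 0.00146). The P173 mean of miR-432, 23.7 units, was under the background level, so the size of this fold is uncertain. In the fetuses miR-432 read 783, 951 and 901 units at F91 and 184, 263 and 376 at F140, so that P173 hearts lay below all 9 other arrays.

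miR-380-3p read 162, 191 and 144 units at P5 and 20, 12 and 35 at P173. Its level at P173 was 8.06-fold lower (log2 change -3.01, interval -3.85 to -2.17, adjusted p = 0.00146). miR-411a-3p, from a nearby hairpin of the same cluster, read 202, 273 and 205 units at P5 and 35, 29 and 36 at P173, 6.75-fold lower (log2 change -2.75, interval -3.50 to -2.01, adjusted p = 0.00146). All 3 P173 hearts were thus close to the background level for both miRNA.

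miR-493-5p is cut from the first hairpin of the series. It read 109, 158 and 122 units at P5 and 22, 5 and 16 at P173, which is not above background, so that it was at least 4.01-fold lower (log2 change -3.39, adjusted p = 0.00364). With miR-432, miR-380-3p and miR-411a-3p it was one of the chromosome 18 miRNA whose call held without any single array, with adjusted p of at most 0.0333 for miR-493-5p and 0.0133 for the other 3.

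miR-127, which is antisense to the retrotransposon-derived gene RTL1, was the brightest called miRNA of the region in P173 hearts. It read 543, 579 and 459 units at P5 and 96, 121 and 199 at P173. The P173 mean was 139 ± 53.7 units (SD, n = 3) and the P5 mean 527 ± 61.6 (SD, n = 3), a 3.96-fold lower level by the fitted change of -1.99 (adjusted p = 0.00929). Without P5 replicate 1 or P5 replicate 2 the call ended, with an adjusted p of up to 0.0647.

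miR-487b-3p read 166, 229 and 137 units at P5 and 31, 38 and 34 at P173 (5.05-fold lower, adjusted p = 0.0123). miR-409-3p read 79, 94 and 151 units at P5 and 17, 14 and 37 at P173 (5.01-fold lower, adjusted p = 0.0383). Neither overlapped between the ages. The call of miR-487b-3p ended without P173 replicate 1, P5 replicate 1 or P5 replicate 2 (adjusted p up to 0.0747), and that of miR-409-3p without any 1 of 5 lamb arrays or F140 replicate 2 (up to 0.182).

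The near-identical miR-329a-3p and miR-329b-3p moved alike. miR-329a-3p read 120, 138 and 133 units at P5 and 38, 31 and 41 at P173, and miR-329b-3p read 116, 167 and 151 at P5 and 35, 41 and 47 at P173. Their fitted changes were -1.83 and -1.81 (adjusted p = 0.0144 for each), and a probe for miR-329a-3p that was shorter by 4 bases gave -1.72. Each of these calls ended without P5 replicate 2 or P5 replicate 3, with adjusted p of up to 0.0747 for miR-329a-3p and 0.0773 for miR-329b-3p.

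The other 7 names of the region that were called lower had P5 means under 100 units, among them miR-3958-3p, miR-379-3p and miR-154a-3p. miR-3958-3p read 60, 91 and 49 units at P5 and 1, 19 and 6 at P173, at least 2.02-fold lower (adjusted p = 0.035). miR-379-3p read 56, 89 and 63 units at P5 and 20, 4 and 18 at P173, at least 2.13-fold lower (adjusted p = 0.0388). The calls of both ended without any single P5 array, and without other single arrays too. miR-154a-3p was at least 1.46-fold lower (adjusted p = 0.0213), as was miR-154b by at least 1.08-fold (adjusted p = 0.0175). miR-410, miR-543-3p and miR-758-3p were not above background at either age and have no fold.

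Of the 16 names called lower, 11 were 3p arms, 1 was a 5p arm and 4 carried no arm in their name. The other arms of the hairpins were mostly dim. miR-379-5p read 139, 168 and 68 units at P5 and 54, 21 and 32 at P173, without overlap (log2 change -1.81, adjusted p = 0.0942), and miR-411a-5p 64, 58 and 32 units at P5 and 22, 23 and 17 at P173, with the lowest P5 array above all P173 arrays (log2 change -1.26, adjusted p = 0.739). miR-432-3p and miR-380-5p stayed under 32 units on every lamb array.

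Many uncalled members also read lower at P173 than at P5. In the RefSeq annotation of the sheep assembly ARS-UI_Ramb_v3.0, 55 miRNA genes stand between MIR493 and MIR323C, both included, and all 55 had a probe. The brightest miRNA of 18 of them had a mean of 32 units or more in lambs, and its fitted change was below 0 in 16. The 16 genes with a call lay from the first to the 54th of the order. Over the 123 names, 44 had every P173 array below every P5 array (35.8 %, against 9.96 % of all probes) and 1 had every P173 array above (against 7.57 % of all probes). The median change of the 20 names with a mean of 32 units or more was -2.16, or -1.82 with the 6 that were not above background at P173 set at their bound, against -0.16 for the 456 names of any kind with such a mean. Of the 123, 89 read under 32 units on all 6 lamb arrays, and their changes say little.

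**Figure D2:**
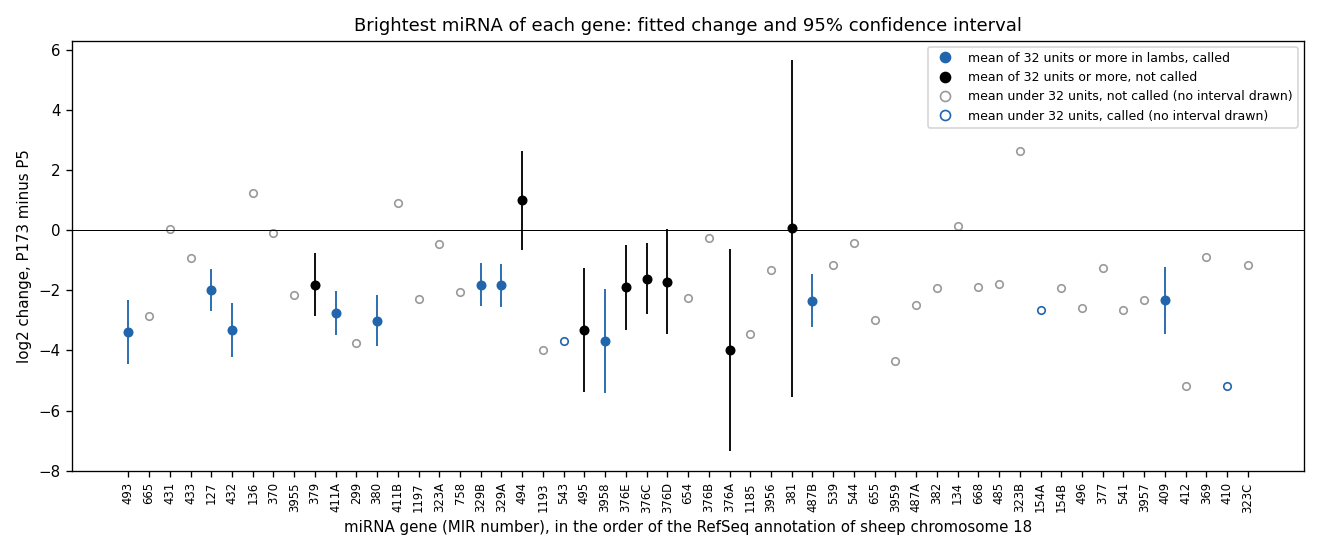
Fitted log2 change from P5 to P173 (vertical axis) of the brightest miRNA of each of 55 miRNA genes, in the order of the annotation of sheep chromosome 18 and not to scale. Bars are 95 % confidence intervals for the 18 genes with a mean of 32 units or more (filled points), open points are genes below that mean, and blue marks a call. Of the 18, 16 lie below 0 and MIR494 and MIR381 above it.

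miR-494-3p and miR-381-5p were the 2 that did not share the direction. miR-494-3p read 169, 308 and 471 units at P5 and 593, 919 and 350 at P173 (log2 change 0.99, interval -0.66 to 2.63, adjusted p = 0.698). miR-381-5p read 137, 95 and 635 units at P5 and 162, 1807 and 32 at P173 (0.06, interval -5.54 to 5.66). Both overlapped between the ages, and miR-381-5p was highest on P173 replicate 2, the dimmest scan of the lambs.

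The summed level of the 123 names was 4307, 5011 and 4418 units in the P5 hearts and 1980, 3562 and 1645 in the P173 hearts. P173 replicate 2 was the highest of its age through the same 2 hairpins. Without them the sums were 3986, 4596 and 3304 units at P5 and 1220, 836 and 1251 at P173. In the fetuses these last sums were 7010 to 8862 at F91 and 6384 to 8553 at F140. Without a single P5 array 4 to 7 of the 16 calls of the list were left, without P173 replicate 1 there were 9 and without P173 replicate 2 there were 11, while 17 names of the list were called without P173 replicate 3.

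miR-15b was the other bright miRNA that was lower at P173 whichever array was left out. It belongs to the miR-15 family, whose members share a seed and are known in the mouse for restraining the cell cycle of cardiomyocytes. The bovine miR-15b probe read 1087, 1192 and 1629 units at P5 and 321, 193 and 302 at P173, 4.83-fold lower (log2 change -2.27, interval -2.93 to -1.61, adjusted p = 0.00178). The 2 other probes of miR-15b, which share its first 18 bases, gave changes of -2.17 (adjusted p = 0.00146) and -2.15 (adjusted p = 0.00178). All 3 calls were lost when the variance was fitted without a trend on the mean level. In the fetuses the bovine probe read 3190 to 5880 units at F91 and 1000 to 1229 at F140, so F140 and P5 hearts overlapped and the P173 hearts were below all others.

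The remaining members of the family were not called. Of 21 names of the family 9 had a mean of 32 units or more in lambs, 3 were called lower and 0 higher, and the 3 were the miR-15b names. miR-16b, the ovine miR-16, read 9208, 8733 and 8207 units at P5 and 5379, 2595 and 5690 at P173, without overlap, and its change of -1.02 (interval -1.64 to -0.40) missed the threshold (adjusted p = 0.121). miR-15a read 169, 201 and 71 units at P5 and 177, 47 and 107 at P173, with overlap (-0.48, interval -2.08 to 1.13). miR-195, by contrast, read 15, 12 and 7 units at P5 and 71, 21 and 28 at P173 (adjusted p = 0.366). The 15 probes of any name with the seed of miR-15b and a mean of 32 units or more had a median change of -0.48.

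miR-214 was lower at P173 as well. It is cut with miR-199a from a long non-coding RNA, DNM3OS, that mesenchymal cells express, and here it stood in the list of fibroblast miRNA. It read 1951, 2359 and 1727 units at P5 and 546, 578 and 603 at P173, 3.47-fold lower (log2 change -1.79, interval -2.47 to -1.12, adjusted p = 0.0123). Of the 9 names of the fibroblast list 6 had a mean of 32 units or more, all with a change below 0, but miR-214 was the only one called. The summed level of the list was 2707 to 4855 units at P5 and 1341 to 1830 at P173. This sum includes miR-214 and so its own fall, and does not show that the other names fell. miR-199a-3p read 1116, 1387 and 553 units at P5 and 544, 301 and 553 at P173 (-1.08, interval -2.28 to 0.12). In bulk tissue fewer cells of a type and less RNA per cell cannot be told apart. Without P5 replicate 1 or 2, or P173 replicate 1 or 2, the call of miR-214 ended (adjusted p up to 0.0747).

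**Figure D3:**
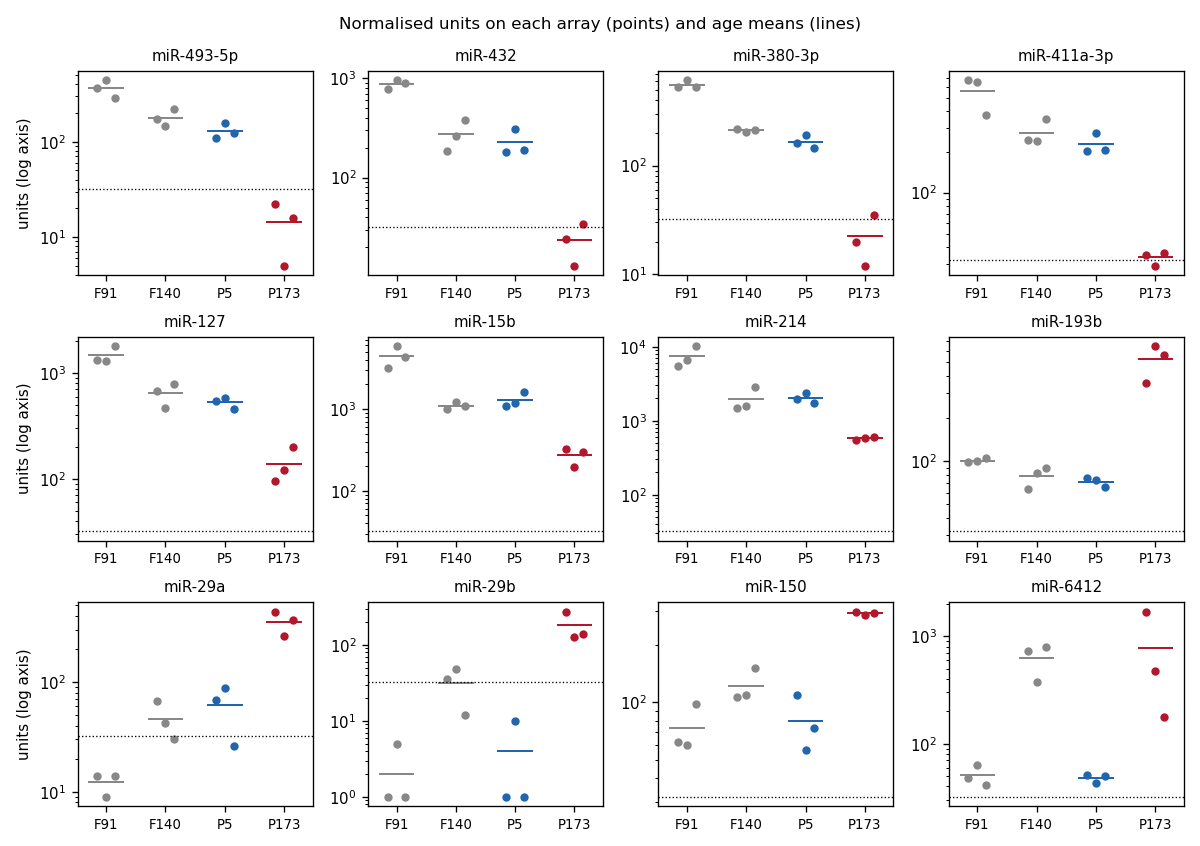
Normalised units on each of the 12 arrays (points, logarithmic axis) and age means (horizontal lines) for 12 called miRNA, with fetuses in grey, P5 in blue, P173 in red and a dotted line at 32 units. Values under 1 are drawn at 1. P173 arrays lie below all others for the 7 miRNA from miR-493-5p to miR-214 and above all others for miR-193b, miR-29a, miR-29b and miR-150, but not for miR-6412.

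Among the miRNA that were higher at P173, miR-193b was the only one whose call held without any single array. It is known in the mouse for a part in the formation of brown fat and is transcribed next to miR-365. It read 76, 73 and 66 units at P5 and 356, 648 and 560 at P173. The P173 mean of 521 ± 149.8 units (SD, n = 3) was 7.06-fold above P5 by the fitted change of 2.82 (interval 2.08 to 3.56, adjusted p = 0.00146). The F140 hearts, at 64, 83 and 89 units, overlapped the newborn, and the F91 hearts, at 98, 100 and 105, lay above both and below P173.

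The difference between the change in the lambs and that in the fetuses was tested as P173 minus P5 less F140 minus F91. The miR-193b probe was the only one called for it (1 of 3091, 0.0324 %). The difference of the changes was 3.19 (adjusted p = 0.0434), and 389 probes had an unadjusted p under 0.05 in this test. The call of this difference did not hold when single arrays were left out, except without F91 replicate 1 or P173 replicate 1, and its adjusted p ranged from 0.00653 to 0.167. Its relatives were less clear. miR-365-3p read 84, 157 and 84 units at P5 and 254, 155 and 537 at P173, with overlap (1.42, adjusted p = 0.256), and miR-193a, with the seed of miR-193b, read 43, 24 and 16 units at P5 and 44, 83 and 94 at P173 (1.46, adjusted p = 0.527). Of 8 names of miR-193 and miR-365, 5 had a mean of 32 units or more and 1 was called. The other arm, miR-193b-5p, read at most 8 units in lambs.

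Members of the miR-29 family, a group of near-identical miRNA, were higher at P173. The family is known for silencing messenger RNA of collagens and other matrix proteins. Of 7 names on the array 5 had a mean of 32 units or more in lambs, 2 of them not above background at P5. All 5 were higher on every P173 array than on every P5 array (against 7.57 % of all probes), and 3 were called higher. Of the 10 probes with the seed of miR-29, 5 were called higher and 0 lower, against 0.906 % of all probes called higher. Signal from sequences this alike may not be separate measurements, which was not tested, so these names and probes do not count as separate cases.

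miR-29a read 69, 89 and 26 units at P5 and 437, 262 and 366 at P173, 6.39-fold higher (log2 change 2.68, interval 1.54 to 3.81, adjusted p = 0.0189). miR-29b was not above background in newborn hearts, at 1, 10 and 1 units. It read 273, 127 and 140 units in the older lambs, a level at least 5.29-fold higher than at P5 (adjusted p = 0.0267). miR-29d-3p read 36, 40 and 23 units at P5 and 495, 338 and 295 at P173, 11.4-fold higher (log2 change 3.51, interval 1.97 to 5.05, adjusted p = 0.0216). All 3 miRNA were thus low in every P5 heart and over 120 units in every P173 heart.

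In fetal hearts miR-29a read 14, 9 and 14 units at F91 and 67, 42 and 30 at F140, so that P5 hearts were level with F140. A further name, miR-29a-3p, read 26, 39 and 24 units at P5 and 591, 303 and 346 at P173, but its change of 3.77 (interval 1.36 to 6.18) missed the threshold (adjusted p = 0.144), as did miR-29d-5p, the other arm of miR-29d-3p (2.91, adjusted p = 0.433). The called names of the family numbered 0 without P5 replicate 1, P5 replicate 3, P173 replicate 1 or P173 replicate 2, and 2 without P5 replicate 2 or P173 replicate 3. The adjusted p of miR-29a reached 0.099, that of miR-29b 0.14 and that of miR-29d-3p 0.127 in these fits.

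miR-150, abundant in mature lymphocytes, was higher at P173. The ovine probe read 109, 56 and 73 units at P5 and 297, 286 and 291 at P173, 3.81-fold higher (log2 change 1.93, interval 1.12 to 2.74, adjusted p = 0.0175), and the 2 other probes of miR-150 gave 2.07 and 2.20 (adjusted p = 0.0162 for each). The 3 P173 hearts differed by only 11 units. The call ended without P173 replicate 1 or 2, or P5 replicate 2 or 3 (adjusted p up to 0.0868).

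None of the other miRNA of white blood cells was called. Of 17 names 5 had a mean of 32 units or more in lambs, 1 was called higher and 0 lower. The summed level was 4740 to 6458 units at P5 and 3296 to 4330 at P173. It includes miR-342 and miR-342-3p, which have the same seed and were not called (-0.68 and -0.54). miR-342 averaged 11.5 as log2(units + 0.1) over the lamb arrays, against 6.4 for miR-155, so the sum says little about the dimmer names. miR-155, found in activated lymphocytes and macrophages, read 112, 216 and 125 units at P5 and 54, 36 and 60 at P173 (-1.56, adjusted p = 0.111). miR-146a, induced in activated immune cells, read 50, 47 and 10 units at P5 and 272, 44 and 55 at P173, with overlap (1.60, interval -0.16 to 3.35, adjusted p = 0.503). miR-223-3p and miR-142, of neutrophils and of blood cells in general, read 6 to 35 units and 5 to 35 units on the lamb arrays. Among 11 names of red blood cells none was called. miR-486, which muscle also expresses, read 2063, 1858 and 2003 units at P5 and 2917, 4924 and 4889 at P173 without overlap (1.06, interval 0.50 to 1.63, adjusted p = 0.0706), and miR-451 read 1437, 1207 and 3122 at P5 and 1901, 140 and 1956 at P173. The part of blood in the change of miR-150 was not tested.

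Another set of entries that were higher at P173 were short RNA that overlap transfer RNA, ribosomal RNA or other small RNA and that had once been listed as miRNA. Of 37 such names 32 had a mean of 32 units or more in lambs, 5 were called higher and 0 lower, and the median change of the 32 was 1.01, against -0.16 for the 456 names of any kind with such a mean. With every probe of these names counted, 14 of 155 were called higher, which is 14 of all 28 probes called higher, against 0.906 % of all probes. The sequences that end in CCA numbered 92 (2.98 % of all probes), a set that was put together after the values had been seen. Of these, 8 were called higher and 0 lower, against 0.906 % of all probes called higher, and the 40 of them with a mean of 32 units or more had a median change of 1.07. The set also takes in miRNA such as miR-23a and miR-223 that merely end in these bases. The 35 of the 92 that were in the list above held 7 of the 8 calls.

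miR-2478 read 262, 312 and 387 units at P5 and 1028, 906 and 688 at P173, 2.73-fold higher (log2 change 1.45, interval 0.85 to 2.05, adjusted p = 0.0175). Its level in P5 hearts was below all 9 other arrays, since the fetuses read 698 to 1008 units at F91 and 804 to 849 at F140. PC-3p-8998_497, an anonymous entry with a nearly identical sequence, read 293, 307 and 378 units at P5 and 880, 876 and 662 at P173 (2.47-fold higher, adjusted p = 0.0201), again with the newborn hearts lowest of all. Its call ended without any lamb array but P173 replicate 3 (adjusted p up to 0.107). Here the difference between the lambs was a dip at P5 and not a level reached only at P173.

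miR-7977 read 182, 205 and 270 units at P5 and 848, 801 and 835 at P173, 3.83-fold higher (log2 change 1.94, interval 1.25 to 2.62, adjusted p = 0.00929). mir-5100-p5 read 62, 66 and 73 units at P5 and 265, 197 and 175 at P173, 3.12-fold higher (adjusted p = 0.0216). These 2 were highest at P173, above the 6 fetuses too. Of the 28 probes called higher, 17 had all P173 arrays above all 9 other arrays and 7 had all P5 arrays below all 9 others, against 1.88 % and 0.518 % of all probes. No called probe overlapped between the lamb ages, which makes both patterns more likely among the calls. Of the 234 probes higher at P173 without overlap, called or not, 58 had the first pattern and 16 the second.

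For miR-4454 the exact probe was not called (adjusted p = 0.0731), but 2 variants were. The variant with 1 changed base read 371, 290 and 298 units at P5 and 1424, 912 and 652 at P173 (2.98-fold higher, adjusted p = 0.0428). mir-7641-1-p3, whose sequence overlaps ribosomal RNA, was among the brightest called entries, with 1796, 3741 and 2870 units at P5 and 6683, 12810 and 6603 at P173 (3.08-fold higher, adjusted p = 0.0447). A probe of mir-7641-1-p5 gave a change of 1.48 (adjusted p = 0.0391), and miR-5100 and a variant probe of mir-5100-p3, whose exact probe was not called, were called too, with 1.80 and 2.02 on the log2 scale (adjusted p = 0.0443 and 0.0162). P173 replicate 2 was the highest array for the ribosomal entries, though not for miR-4454, where P173 replicate 1 was. Entries of the list went the other way too. mir-2487-p5 read 1584, 1364 and 2289 units at P5 and 1103, 307 and 358 at P173 (-1.78, adjusted p = 0.147).

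The calls of these entries rested on single arrays. Called names of the list numbered 0 without P5 replicate 1 or 2, 1 without P173 replicate 1 or 2, 2 without P5 replicate 3 and 9 without P173 replicate 3. Whether these RNA reflect the state of the RNA sample or of the tissue was not tested.

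**Figure D4:**
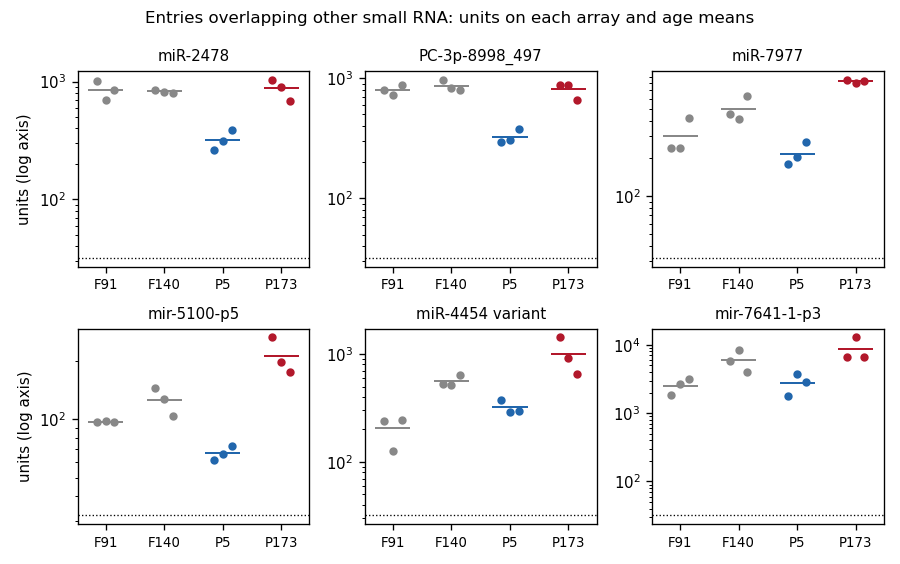
Normalised units on each of the 12 arrays (points, logarithmic axis) and age means (horizontal lines) for 6 called entries that overlap other small RNA or, like PC-3p-8998_497, resemble one that does, with a dotted line at 32 units. miR-2478 and PC-3p-8998_497 are low only at P5, while miR-7977 and mir-5100-p5 are highest at P173.

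miR-6412, described in the mouse, had a wide spread at P173. Its chosen probe read 51, 43 and 50 units at P5 and 1695, 473 and 177 at P173, 10.9-fold higher (log2 change 3.44, interval 2.11 to 4.78, adjusted p = 0.0144), and the other 2 probes of the name were called as well. P173 mean and SD were 782 ± 805 units (n = 3). The F140 hearts, at 724, 379 and 789 units, were as bright as P173 hearts, whereas F91 hearts read 41 to 63. The call ended without P173 replicate 2 or any of the P5 arrays (adjusted p up to 0.0747). The last name called higher, mir-2319a-p5, was under 10 units on every array and has no fold.

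Muscle miRNA showed no call. Of 32 names of heart and skeletal muscle miRNA 14 had a mean of 32 units or more in lambs, 0 passed in either direction, and the median of the 14 was 0.54, with every one above 0. miR-133a-3p, the brightest named miRNA of the lamb hearts after an anonymous probe and a probe of mir-7641-1-p5, read 14692, 16290 and 13910 units at P5 and 13434, 17987 and 14205 at P173 (0.01, interval -0.49 to 0.52). miR-133b read 13937, 13310 and 14203 at P5 and 14234, 17547 and 14216 at P173 (0.14, interval -0.33 to 0.62). Neither changed by more than the spread, and the intervals leave out changes as large as 1 on the log2 scale.

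miR-1, the most abundant miRNA of heart muscle in many species, read 9107, 10689 and 2744 units at P5 and 13643, 5333 and 9061 at P173, with overlap (0.43, interval -1.03 to 1.90). miR-208b, encoded in the slow myosin gene MYH7, read 15, 20 and 7 units at P5, which is not above background, and 136, 40 and 84 at P173, without overlap but with a wide interval (2.58, interval -0.01 to 5.17, adjusted p = 0.461). In the F140 hearts it had been 1572, 399 and 750 units. miR-499, encoded in MYH7B, read 2640, 2995 and 768 units at P5 and 5610, 2493 and 4427 at P173 (1.12, adjusted p = 0.573). P5 replicate 3 was the lowest newborn heart for miR-1, miR-208b and miR-499, and P173 replicate 2 the lowest P173 heart for all 3.

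The brightest entry of the lamb hearts was anonymous, PC-5p-51320_64, with 31216, 31936 and 47039 units at P5 and 12695, 14854 and 14701 at P173, without overlap (-1.36, interval -2.30 to -0.42, adjusted p = 0.198). The probe of mir-7641-1-p5 read 11972, 15855 and 15134 units at P5 and 20916, 34907 and 21041 at P173 (0.81, adjusted p = 0.366). miR-133a, from a primate entry, read 13337 to 15101 units at P5 and 14275 to 16638 at P173.

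Several families of bright miRNA were nearly level between the lamb ages. The let-7 family with miR-98, known for marking differentiated cells, had 18 of 27 names with a mean of 32 units or more and a median change of -0.12, with 0 called. let-7a-5p read 10292, 10948 and 11031 units at P5 and 10686, 7719 and 8162 at P173 (-0.29, interval -0.80 to 0.21). The miR-30 family, abundant in cardiomyocytes, had 14 of 22 such names, a median of -0.15 and 0 called, and miR-30c read 10373, 10298 and 9897 units at P5 and 9338, 6400 and 7425 at P173 (-0.42, adjusted p = 0.515).

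The family of miR-378, which is encoded in PPARGC1B, a regulator of mitochondrial genes, had 21 of 24 names with such a mean, all with a change below 0, a median of -0.26 and 0 called. miR-378 itself read 5180, 5581 and 4974 units at P5 and 3533, 3431 and 4557 at P173 (-0.46, interval -0.98 to 0.06). The miR-17-92 group and its paralogs, known for promoting the cell cycle, had 14 of 36 such names, a median of -0.31 and 0 called. For the miR-181 family these values were 7 of 12, -0.58 and 0, and for the miR-320 family 7 of 8, 0.31 and 0. For miR-23, miR-27 and miR-24 they were 9 of 18, 0.07 and 0, and for miR-99, miR-100 and miR-125 11 of 16, 0.09 and 0.

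miR-22-3p, abundant in heart muscle, read 602, 961 and 462 units at P5 and 1370, 1677 and 1186 at P173, with no overlap (1.12, interval 0.37 to 1.87), and missed the threshold (adjusted p = 0.176). miR-101, which is known for silencing the chromatin enzyme EZH2, was not above background at P5 (5, 13 and 3 units) and read 56, 48 and 34 at P173 (adjusted p = 0.0739). miR-126-3p of endothelium read 4476, 4053 and 2197 units at P5 and 3963, 3535 and 3903 at P173 (0.15, interval -0.80 to 1.11). miR-145 of smooth muscle read 2736, 2817 and 2587 at P5 and 3140, 4155 and 3826 at P173 (0.44, interval -0.03 to 0.92, adjusted p = 0.496).

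The lists of miR-34 and miR-449, of the cluster of miR-424 and miR-503 and of the Hox cluster miRNA had 1 name each with a mean of 32 units or more, and none was called. Of 89 names of the ruminant miR-2284 and miR-2285 families 6 had such a mean, with a median change of 0.06 and 0 called. Of the 12 names of miR-26 and miR-101, 5 had such a mean and 0 were called. None of the 7 names of smooth muscle miRNA or of the 4 of endothelium was called either.

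**Figure D5:**
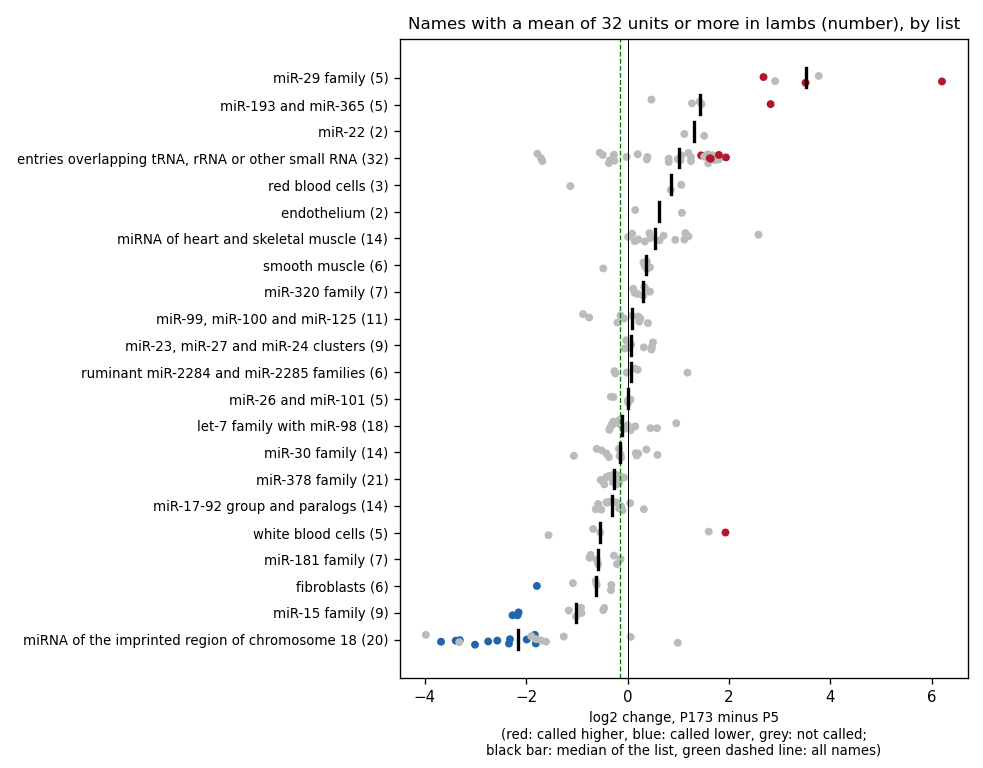
Log2 change from P5 to P173 (horizontal axis) of the names in each list with a mean of 32 units or more in lambs, their number in brackets. Points are names, red where called higher, blue where called lower and grey where not called, with a black bar at the median of the list and a green dashed line at the median of all names. The chromosome 18 list lies lowest, with a median of -2.16 (-1.82 with its 6 names that were not above background at 1 age set at their bound), and the miR-29 family highest, with 3.51 (2.68 with 2 such names at their bound).

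For most probes called between the lambs the fitted change between the fetuses, whose arrays were not part of the difference, had the same sign. Of the 28 called higher at P173 24 had a higher mean at F140 than at F91 (85.7 %), and of the 21 called lower 1 had (4.76 %), against 51.7 % of all 3091 probes. The 28 probes carried 16 names, several of them alike in sequence, so they do not count as separate cases. Nor do the 21, of which 17 were of the chromosome 18 list and 3 were probes of miR-15b. The median change from F91 to F140 was 0.95 for the first set and -1.06 for the second, against 0.07 for all probes. All 21 probes called lower read lower in P173 hearts than on any of the 9 other arrays, which was the case for 2.01 % of all probes. None of the 49 called probes overlapped between the lamb ages, so the part of this that concerns P5 came with the call. Of the 308 probes lower at P173 without overlap, called or not, 62 lay below all 9 other arrays. The 4 called higher without a rise between the fetuses included miR-193b and miR-2478. The fetal arrays had entered the estimate of the spread.

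GC content differed between the sets called, with a median of 52.4 % for the probes called higher, 42.9 % for those called lower and 47.4 % for all. On P173 replicate 2 the signal relative to the mean of all arrays rose with GC content, by 0.267 on the log2 scale per 10 % of GC, and on the other lamb arrays this slope was -0.083 to 0.144. With this trend taken out of every array 29 probes were called higher and 23 lower, of which 44 were among the 49.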

How the data were processed

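Left-ventricular RNA of 12 sheep was hybridised to a custom single-colour array. The authors deposited scanner intensity values for each spot and 2 tables of normalised probe values: an intensity table, and its whole numbers, named here as a score, which were analysed. Values were background corrected and lowess normalised by the authors before deposition. All 3091 non-control probes were fitted as log2(value + 0.1) over 12 arrays with limma 3.58.1 in R 4.3.3 (lmFit, eBayes with a variance trend). Tables were handled in Python 3.11.15 with pandas 2.3.3. Each name was given 1 probe: exact ovine, then bovine, then any exact one, then a variant, and the brightest among equals. Named are all names passing the test, those under 100 units at the brighter age as examples, members of 26 lists, other arms and the 5 brightest. The members and lists were chosen with earlier results of these data known. The number of arrays limits the precision, and the simulated noise was independent between probes, all of those changed having a mean of at least 100 units.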

Additional observations from a re-analysis of the deposited data

Results flagged for a closer look

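miR-193b was the only miRNA called in a test of the difference between its change from P5 to P173 and its change from F91 to F140. The difference of the changes was 3.19 on the log2 scale (limma's adjusted p = 0.0434), from a change of 2.82 between the lambs and -0.37 between the fetuses. miR-193b was above background on all 12 arrays. The call of the difference held in only 2 of the 12 fits that left out a single array (limma's adjusted p 0.00653 to 0.167).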

How the results depend on the processing

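Calls between P5 and P173 numbered 49, and 12 to 76 when 1 of the 12 arrays was left out, lowest without P5 replicate 2 (13 without P5 replicate 1, 18 without P5 replicate 3) and highest without P173 replicate 3. They were 41 to 69 under other pseudocounts, floors, filters, normalisations and deposited tables, without moderation, with the GC trend taken out or with these 2 ages alone. They fell to 9 without a variance trend, of which 7 were among the 49, and to 9 with P5 replicates 1 and 2 averaged, and rose to 76 with array weights. With the replicate number as a block in the 6 lamb arrays 0 passed (298 at an unadjusted p under 0.05). In the same 6 arrays 66 passed when the GC trend was also taken out. With the block in all 12 arrays 55 passed. Deviations of lambs with the same number correlated at 0.339, -0.525 and -0.444, and those of lambs with different numbers at -0.192 to 0.610. With 3 arrays at each age these deviations depend on each other, so they cannot decide whether the numbers pair the lambs. With 2 alternatives chosen after seeing the data, GC correction within these 2 ages gave 86 calls, and leaving out the dimmest scans, P173 replicate 2 and F91 replicate 3, gave 24. The difference of the lamb and fetal changes had 1 call and 0 with a pseudocount of 1, the series matrix values, P5 replicates averaged or the dimmest scans left out. It had 13 with a pseudocount of 32, 37 with a floor of 32 units, 3 without the trend, 5 without moderation, 21 with array weights, 6 with the block and 35 from scanner signals, and 0 to 77 with 1 array left out, 77 without F91 replicate 1. For the probes named, 1054 of 1512 values under other settings kept their call, 458 were no longer past the threshold and 0 changed sign. The causes were not tested, apart from fewer arrays where some were left out. The number of arrays and probes near 32 units limit the precision.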
